A study of Homo sapiens with 12 samples.

Results

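The transcripts of the mitochondrial genome in H520 cells were followed through treatment with an FGFR4 inhibitor, a CDK4/6 inhibitor and both together. The members were the rows of the gene table whose name begins with MT-, which were 37 of 58174 rows: 13 mRNAs, 2 rRNAs and 22 tRNAs. H520 is an established human cell line, labelled as lung squamous cell carcinoma (LUSC). The 12 libraries fell into 4 groups of 3: BLU9931 at 1 µM together with palbociclib at 1 µM (the combination), palbociclib at 1 µM alone, BLU9931 at 1 µM alone, each for 72 h, and control cells, for which the labels name no vehicle and no time. BLU9931 binds FGFR4, a growth factor receptor, covalently and blocks its kinase, whereas palbociclib blocks the cell cycle kinases CDK4 and CDK6. Nothing in the labels says whether replicate libraries are separate cultures, so p-values measure the spread between these libraries, which may be technical.

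Human mitochondria keep a small circular genome that is transcribed from both strands into long precursors. In those precursors tRNAs lie between most of the mRNAs and rRNAs, and cutting at the tRNA ends releases the separate RNAs, an arrangement known as tRNA punctuation. The mRNAs encode core subunits of the respiratory chain and ATP synthase, the rRNAs form the mitochondrial ribosome, and the tRNAs serve its translation, while every protein that transcribes, cuts or degrades these RNAs is encoded in the nucleus. Mature mitochondrial tRNAs are short and mostly lack a poly(A) tail, so in a library made with an mRNA kit the reads at a tRNA gene may come from the mature tRNA, from an uncut precursor or from the end of a neighbouring RNA, and these cannot be told apart here.

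Each library held between 21.7 and 35.8 M counts, and 20612 genes, all 37 mitochondrial genes among them, had enough counts to be tested. Of 8 squamous markers, SOX2 lay between 342 and 443 TPM, while TP63, KRT5, KRT6A, KRT14, DSG3 and PKP1 lay at or near 0 in every library, at most 1.31 TPM, and the keratin KRT15 between 2.50 and 14.9 TPM. The 2 libraries control 1 and palbociclib 3 stood apart from the rest: within their groups, their deviation from the mean ran against the GC content of the gene, with Spearman's rho across genes of -0.69 for control 1 and -0.74 for palbociclib 3, against -0.26 to 0.61 in the other libraries. The mitochondrial mRNAs have a GC content of 39.6 to 47.7%, below the median of 49.65% over the tested genes. Palbociclib 3 had the highest value of its group for 11 of the 13 mRNAs and palbociclib 2 the lowest for all 13, whereas control 1 was the highest for 4 and the lowest for 5. The part of this difference in the results was not tested, and results that rest on these libraries are given with and without them.

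A pair of tRNA gene clusters on which the results turn is shown with their anticodons in capitals, as DNA letters in the direction of the transcript. MT-TH, MT-TS2 and MT-TL2, the tRNAs for histidine, for serine at AGY codons and for leucine at CUN codons, lie head to tail on the plus strand at MT:12138-12336 of GRCh38, between MT-ND4 and MT-ND5.
MT-TH: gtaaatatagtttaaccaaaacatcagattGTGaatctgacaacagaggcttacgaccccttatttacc
MT-TS2: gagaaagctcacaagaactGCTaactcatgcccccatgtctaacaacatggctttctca
MT-TL2: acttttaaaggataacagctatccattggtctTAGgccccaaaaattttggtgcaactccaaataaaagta
The last 30 bases of MT-ND4 stop immediately before MT-TH, with a lone T in place of a stop codon, shown in capitals.
MT-ND4 end: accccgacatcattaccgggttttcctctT
Polyadenylation completes such a stop codon, and 6 of the 13 mRNAs end this way, 5 with T and MT-ND1 with TA. MT-TA, MT-TN, MT-TC and MT-TY, the tRNAs for alanine, asparagine, cysteine and tyrosine, lie on the minus strand at MT:5587-5891, between MT-ND2 and MT-CO1.
MT-TA: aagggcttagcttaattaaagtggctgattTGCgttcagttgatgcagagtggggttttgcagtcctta
MT-TN: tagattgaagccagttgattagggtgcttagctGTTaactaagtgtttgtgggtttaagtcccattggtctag
MT-TC: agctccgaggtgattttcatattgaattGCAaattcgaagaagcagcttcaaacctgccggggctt
MT-TY: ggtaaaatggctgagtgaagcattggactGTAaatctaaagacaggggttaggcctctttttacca
The sequences are those of GENCODE release 29. Of the 37 genes, 28 lie on the plus strand and 9 on the minus strand, and the minus strand holds MT-ND6 and 8 tRNAs.

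The mitochondrial genome supplied about the same share of all counts under the combination as in the controls. Within that share the summed rRNA counts and the summed tRNA counts took more. All 37 genes together took 12.5% ± 0.52 of the counts in combination libraries, 14.2% ± 1.36 in palbociclib libraries, 12.7% ± 0.73 in BLU9931 libraries and 12.4% ± 0.30 in control libraries (SD, n = 3 each), and every group overlapped the controls. The 13 mRNAs took 10.2% ± 0.51 in combination libraries, 11.5% ± 1.20 in palbociclib libraries, 9.88% ± 0.61 in BLU9931 libraries and 10.5% ± 0.26 in control libraries, again with overlap in counts. For all 37 genes the palbociclib libraries had 14.65, 12.62 and 15.20%, against 12.52, 12.70 and 12.12% in control libraries. For the mRNAs they had 12.08, 10.16 and 12.37%, against 10.38, 10.79 and 10.29%. Both overlaps of the palbociclib group with the controls thus rested on palbociclib 2. In the authors' TPM the mRNA share of the BLU9931 libraries, 18.6% ± 1.11, lay below every control, at 20.5% ± 0.36. The combination and palbociclib libraries overlapped the controls in TPM too. Counts are relative to the total of the library, so a change in mitochondrial RNA and a change in the other RNA cannot be told apart. Nor can a change per cell be told apart from a change in the number of cells rich in mitochondrial RNA.

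The rRNA share was higher than the control share in every treated library. It was 2.10, 2.13 and 2.02% in combination libraries, 2.38, 2.27 and 2.64% in palbociclib libraries, 2.53, 2.72 and 2.39% in BLU9931 libraries, and 1.96, 1.73 and 1.64% in control libraries. The combination libraries lay between the controls and both single drugs, without overlap in counts, while in the authors' TPM the combination overlapped the controls. The tRNA share was 0.223, 0.256 and 0.238% in combination libraries, 0.184, 0.191 and 0.197% in palbociclib libraries, 0.222, 0.239 and 0.201% in BLU9931 libraries, and 0.180, 0.184 and 0.190% in control libraries. The combination and BLU9931 libraries lay above every control, and the palbociclib libraries overlapped them. These shares are sums over chosen genes and carry no test. They are led by few genes and do not describe each member. MT-TA, MT-TN, MT-TC and MT-TY held 64.1 to 74.8% of the tRNA counts of a library. Of the 22 tRNAs, 5 rose and 7 fell under the combination against the control in edgeR's test, given below. Most rRNA counts came from MT-RNR2, while MT-RNR1 fell under the combination.

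**Figure D1:**
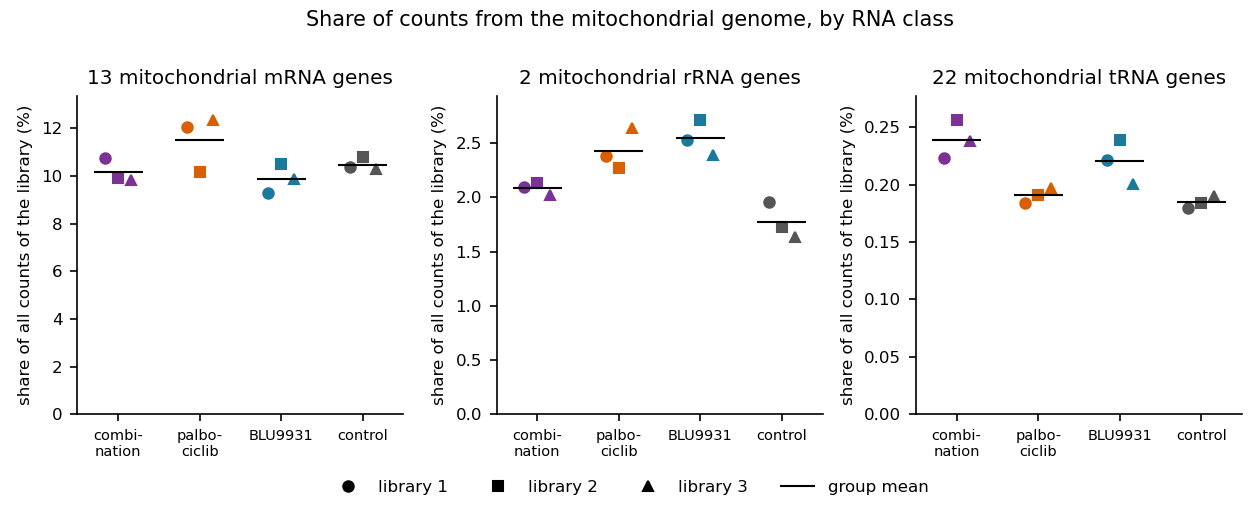
Share of all counts of each library, in percent, taken by the 13 mRNAs, 2 rRNAs and 22 tRNAs of the mitochondrial genome, with points for libraries and lines for group means. The mRNA shares overlap between groups, the rRNA shares of the treated libraries all lie above the highest control of 1.96%, and the tRNA shares of the combination lie above the highest control of 0.190%.

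Per length, MT-CO1, the catalytic subunit of cytochrome c oxidase (complex IV), had the highest mean level in each group, and MT-ND6, the mRNA on the minus strand, the lowest. On the TPM scale MT-CO1 averaged 41186 ± 2342 in combination libraries, 46092 ± 2531 in palbociclib libraries, 36099 ± 2253 in BLU9931 libraries and 37845 ± 1826 in control libraries. MT-CO2, a second complex IV subunit, averaged 30794 ± 736 TPM in combination libraries, 32142 ± 1509 TPM in palbociclib libraries, 30291 ± 1218 TPM in BLU9931 libraries and 32232 ± 1077 TPM in control libraries. MT-CO3, the remaining complex IV subunit, averaged 31002 ± 904 TPM in combination libraries, 32742 ± 2094 TPM in palbociclib libraries, 22439 ± 1920 TPM in BLU9931 libraries and 29189 ± 1212 TPM in control libraries. It was among the 3 highest in every group except BLU9931, where MT-RNR2, MT-ND4 and MT-ND4L lay above it.

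The order of MT-RNR2, the large rRNA, and the complex I pair MT-ND4L and MT-ND4 differed between groups. MT-RNR2 had 23087, 23699 and 21914 TPM in combination libraries, 26048, 25421 and 29725 TPM in palbociclib libraries, 27533, 29315 and 25847 TPM in BLU9931 libraries, and 21836, 18494 and 17393 TPM in control libraries. MT-ND4 had 20379, 17576 and 18328 TPM in combination libraries, 26488, 21764 and 27671 TPM in palbociclib libraries, 24387, 27552 and 27056 TPM in BLU9931 libraries, and 26499, 26154 and 24503 TPM in control libraries. MT-RNR2 thus lay above MT-ND4 in the combination and below it in the controls, without overlap, and the ranges overlapped in the other groups. The ranges of MT-ND4L and MT-ND4 overlapped in every group.

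Of the other mRNAs, MT-ND1 and MT-ND2, further subunits of complex I, had mean levels of 13846 and 12942 TPM over all 12 libraries, and MT-CYB, the complex III subunit, 6417 TPM. MT-ND3, MT-ND5 and MT-ATP6 followed at 5591, 5271 and 4363 TPM, in an order that differed between groups. MT-RNR1, the small rRNA, had a mean level of 3541 TPM, MT-ATP8 one of 2496 TPM and MT-ND6 one of 672 TPM.

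**Figure D2:**
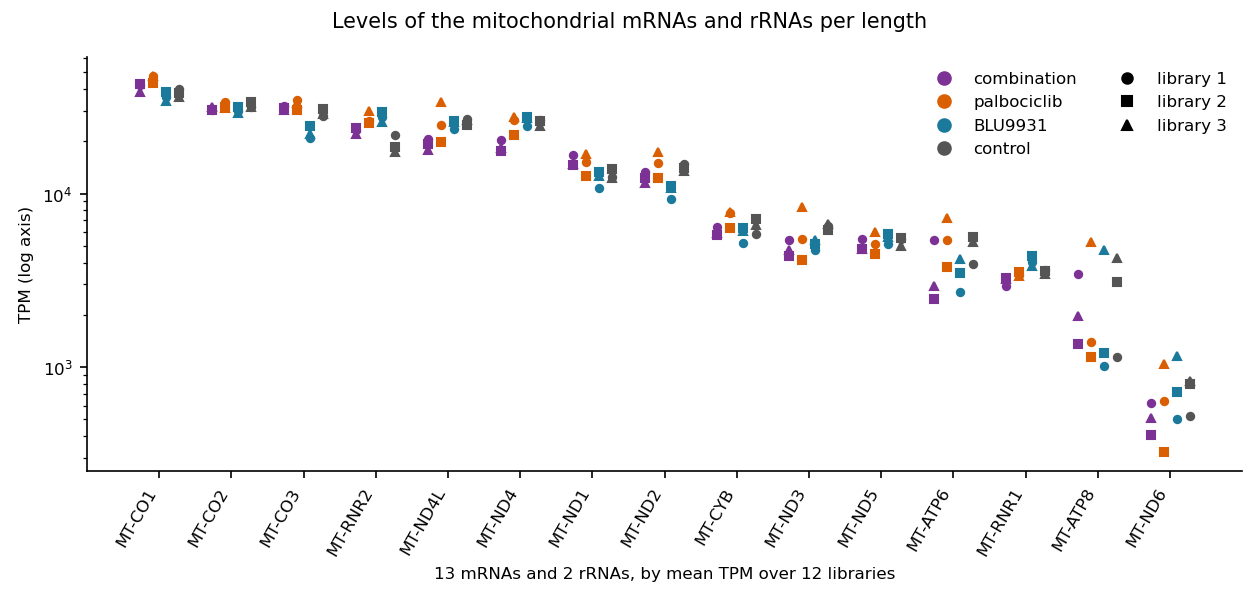
TPM of the 13 mRNAs and 2 rRNAs in each of 12 libraries on a log axis, ordered by their mean. MT-CO1 lies highest at 40305 TPM and MT-ND6 lowest at 672 TPM, and MT-ATP8 spreads from 1013 to 5267 TPM.

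The combination libraries, and the palbociclib libraries apart from palbociclib 3, differed from the controls in the balance between complexes. The shares are given here as values with no test. The 7 complex I mRNAs made up 40.8, 39.2 and 39.5% of the TPM of the 13 mRNAs in combination libraries, 41.6, 39.4 and 45.7% in palbociclib libraries, 45.1, 46.0 and 46.9% in BLU9931 libraries, and 45.8, 43.7 and 44.3% in control libraries. The 3 complex IV mRNAs made up 51.6, 55.7 and 54.6% in combination libraries, 52.0, 54.8 and 45.9% in palbociclib libraries, 49.8, 48.4 and 45.2% in BLU9931 libraries, and 48.9, 48.7 and 47.8% in control libraries. The combination libraries were thus below all controls for complex I and above all controls for complex IV, and the other drug groups overlapped the controls for complex IV. The overlap of the palbociclib group rested on palbociclib 3, with 45.7% for complex I and 45.9% for complex IV. Without palbociclib 3, the palbociclib libraries too were below all controls for complex I and above all controls for complex IV. The ratio of MT-RNR2 to MT-RNR1 in TPM averaged 7.34 ± 0.53 in combination libraries, 7.95 ± 0.88 in palbociclib libraries, 6.76 ± 0.03 in BLU9931 libraries and 5.42 ± 0.49 in control libraries, and every treated library lay above every control.

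Under the combination, 15 of the 37 genes passed edgeR's test against the control at an adjusted p under 0.05, or 40.5%, against 31.7% of all genes tested. Of the 15, 5 rose and 10 fell, where 15.4% of all genes rose and 16.3% fell. The groups did not overlap in 21 of the 37 genes, against 48.4% of all genes. The median log2 change of the 37 was -0.16, against 0.03 over all genes. Log2 changes and SE below are from edgeR's fit of all 12 libraries, and levels are CPM scaled by TMM factors.

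Among the largest changes were the falls of MT-TH, MT-TS2 and MT-TL2. MT-TL2 had 10.2, 7.64 and 10.4 CPM in combination libraries, against 27.5, 29 and 26.1 CPM in control libraries, a log2 change of -1.55 ± 0.19 (adjusted p = 0.000112). MT-TS2 had 12.1, 9.81 and 13.9 CPM in combination libraries, against 36.4, 36.1 and 30.3 CPM in control libraries (-1.52 ± 0.20, adjusted p = 0.000177). MT-TH had 12.7, 9.92 and 14.1 CPM in combination libraries, against 35.2, 35.6 and 29.96 CPM in control libraries (-1.46 ± 0.24, adjusted p = 0.000898). In all 3 genes every combination library lay far below every control library. Each of the 23 alternative settings kept these calls. As reads at neighbouring tRNA genes can come from the same precursor, the 3 genes are not independent observations.

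Counts of these tRNAs were also low relative to the mRNA beside them. Their summed counts per 1000 MT-ND4 counts were 2.34, 2.16 and 2.85 in combination libraries, 1.84, 1.89 and 2.67 in palbociclib libraries, 3.05, 2.74 and 2.91 in BLU9931 libraries, and 4.90, 5.05 and 4.69 in control libraries. All 9 treated libraries lay below the 3 controls. As a percentage of the counts of the 22 tRNAs, the 3 genes took 1.44 ± 0.31 in combination libraries, 2.10 ± 0.60 in palbociclib libraries, 2.60 ± 0.30 in BLU9931 libraries and 4.99 ± 0.44 in control libraries.

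The 4 minus-strand tRNAs between MT-ND2 and MT-CO1 moved the other way. MT-TC had 570.2, 656 and 555 CPM in combination libraries, against 447, 449 and 446 CPM in control libraries (0.41 ± 0.09, adjusted p = 0.00538). MT-TY had 511, 594 and 609.6 CPM in combination libraries, against 398, 418 and 436 CPM in control libraries (0.45 ± 0.11, adjusted p = 0.00679). MT-TA rose by a log2 change of 0.64 ± 0.15 (adjusted p = 0.00819) and MT-TN by 0.48 ± 0.12 (adjusted p = 0.00944). Together the 4 had 1585, 1882 and 1736 CPM in combination libraries, 1286.5, 1379 and 1272 CPM in palbociclib libraries, 1662, 1732 and 1359.8 CPM in BLU9931 libraries, and 1224.5, 1254 and 1298 CPM in control libraries. The combination libraries lay above every control, as did those of BLU9931, and the palbociclib libraries overlapped the controls. Whether strand was used in counting is not given, so reads of these genes and of the opposite precursor cannot be told apart. As neighbours, the 4 genes are not independent observations. MT-TL1, the leucine tRNA for UUR codons, lies on the plus strand just after MT-RNR2 and rose too (0.41 ± 0.11, adjusted p = 0.0189).

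Both strands held tRNAs that rose and tRNAs that fell. Of the 8 minus-strand tRNAs, 4 rose and 2 fell, MT-TQ for glutamine (-0.66 ± 0.15, adjusted p = 0.00636) and MT-TS1 for serine at UCN codons (-1.55 ± 0.42, adjusted p = 0.016). Of the 14 plus-strand tRNAs, 1 rose and 5 fell, the others being MT-TR for arginine (-1.11 ± 0.24, adjusted p = 0.00478) and MT-TG for glycine (-1.08 ± 0.29, adjusted p = 0.0144). The median log2 change was 0.28 for the 8 minus-strand tRNAs and -0.27 for the 14 plus-strand tRNAs. These are the strands of the genes, and whether reads were counted by strand is not given. With the GC adjustment MT-TR had -0.51 (adjusted p = 0.00484) and MT-TG -0.61 (adjusted p = 0.000125), and their GC contents are 23.1 and 26.5%. MT-TS1 is low, with 13 to 138 counts per library over the 12 libraries. It had 0.589, 0.640 and 2.29 CPM in combination libraries, against 3.39, 3.22 and 3.91 CPM in control libraries.

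**Figure D3:**
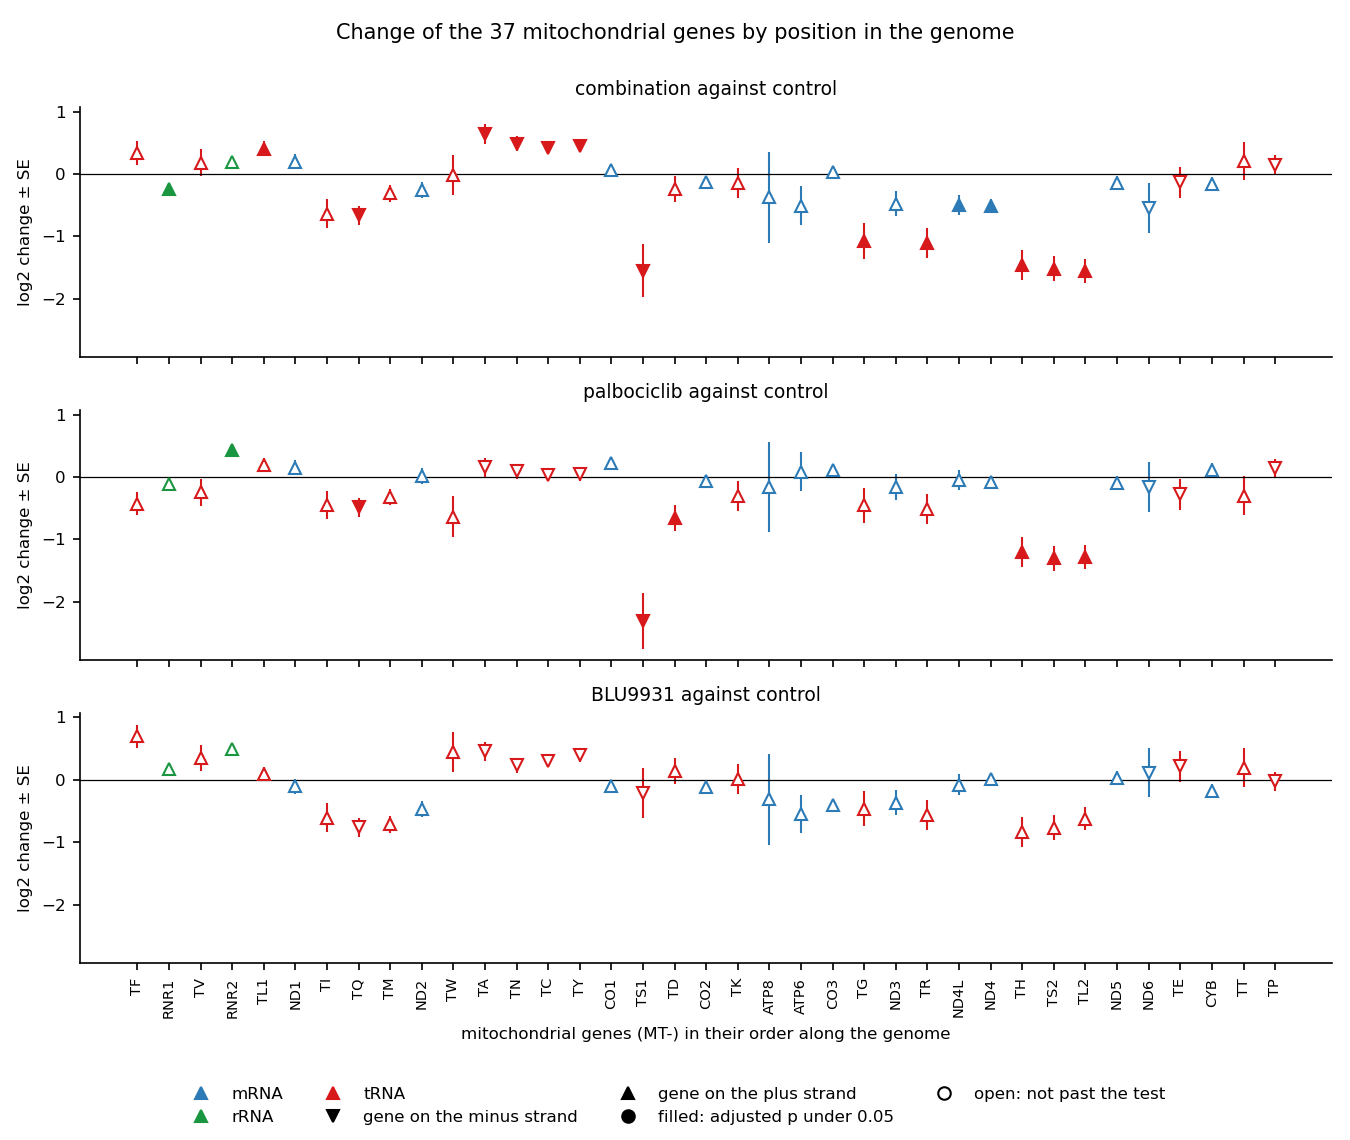
Log2 change with its SE of the 37 genes in their order along the genome, for the combination, palbociclib and BLU9931, each against the control, with triangles pointing down for genes on the minus strand and filled symbols at an adjusted p under 0.05. The falls of MT-TH, MT-TS2 and MT-TL2 under the combination and palbociclib stand between MT-ND4 and MT-ND5, and the rises of MT-TA, MT-TN, MT-TC and MT-TY under the combination between MT-ND2 and MT-CO1.

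Among the mRNAs only the pair MT-ND4L and MT-ND4 passed the test, both subunits of complex I that are read from a shared transcript and overlap by 7 bases. MT-ND4 had 14965, 12670 and 13496 CPM in combination libraries, against 20245, 19945 and 18426 CPM in control libraries (-0.51 ± 0.10, adjusted p = 0.00319). MT-ND4L had 3267, 2986 and 2815 CPM in combination libraries, against 4425, 4049.9 and 4304.5 CPM in control libraries (-0.49 ± 0.16, adjusted p = 0.036). Neither gene's groups overlapped. MT-CO1, MT-CO2 and MT-CO3 had log2 changes of 0.07 ± 0.08, -0.12 ± 0.06 and 0.03 ± 0.08, which did not pass. The other mRNAs had values between -0.55 ± 0.40 for MT-ND6 and 0.20 ± 0.12 for MT-ND1.

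The rRNAs differed from each other. MT-RNR1 had 1488, 1620.2 and 1634 CPM in combination libraries, against 1929, 1880.4 and 1782 CPM in control libraries (-0.24 ± 0.07, adjusted p = 0.0236). MT-RNR2 had 19182, 19329 and 18257 CPM in combination libraries, against 18875, 15957 and 14799 CPM in control libraries (0.19 ± 0.10, adjusted p = 0.158), where control 1 lay above combination 3. Without control 1 and palbociclib 3, MT-RNR2 passed (0.28, adjusted p = 0.00537), and the count of mitochondrial genes past the threshold was 18. Calls over all genes numbered 8189 in that fit, against 6532 with all libraries.

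Of the 15 calls, 9 held under each of the 23 alternatives: MT-TL2, MT-TS2, MT-TH, MT-ND4, MT-TR, MT-TC, MT-TQ, MT-TY and MT-TA. The call of MT-RNR1 ended without combination 1 (adjusted p = 0.0906) or control 2 (0.0567), with library totals (0.0844), without the filter (0.0795), with the GC adjustment (0.153) and with TPM (0.0865 to 0.122). That of MT-ND4L ended without control 1 (0.0677), control 3 (0.0634), combination 2 (0.0742) or combination 3 (0.0977), with library totals (0.0549), with TPM (0.050 to 0.0978) and with the replicate block (0.0516). That of MT-TL1 ended without control 1 (0.0555), control 3 (0.0555) or combination 2 (0.0772). MT-TN ended without combination 2 (0.0509), MT-TS1 without combination 1 (0.0564) or combination 2 (0.0612), and MT-TG without combination 3 (0.0548).

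**Figure D4:**
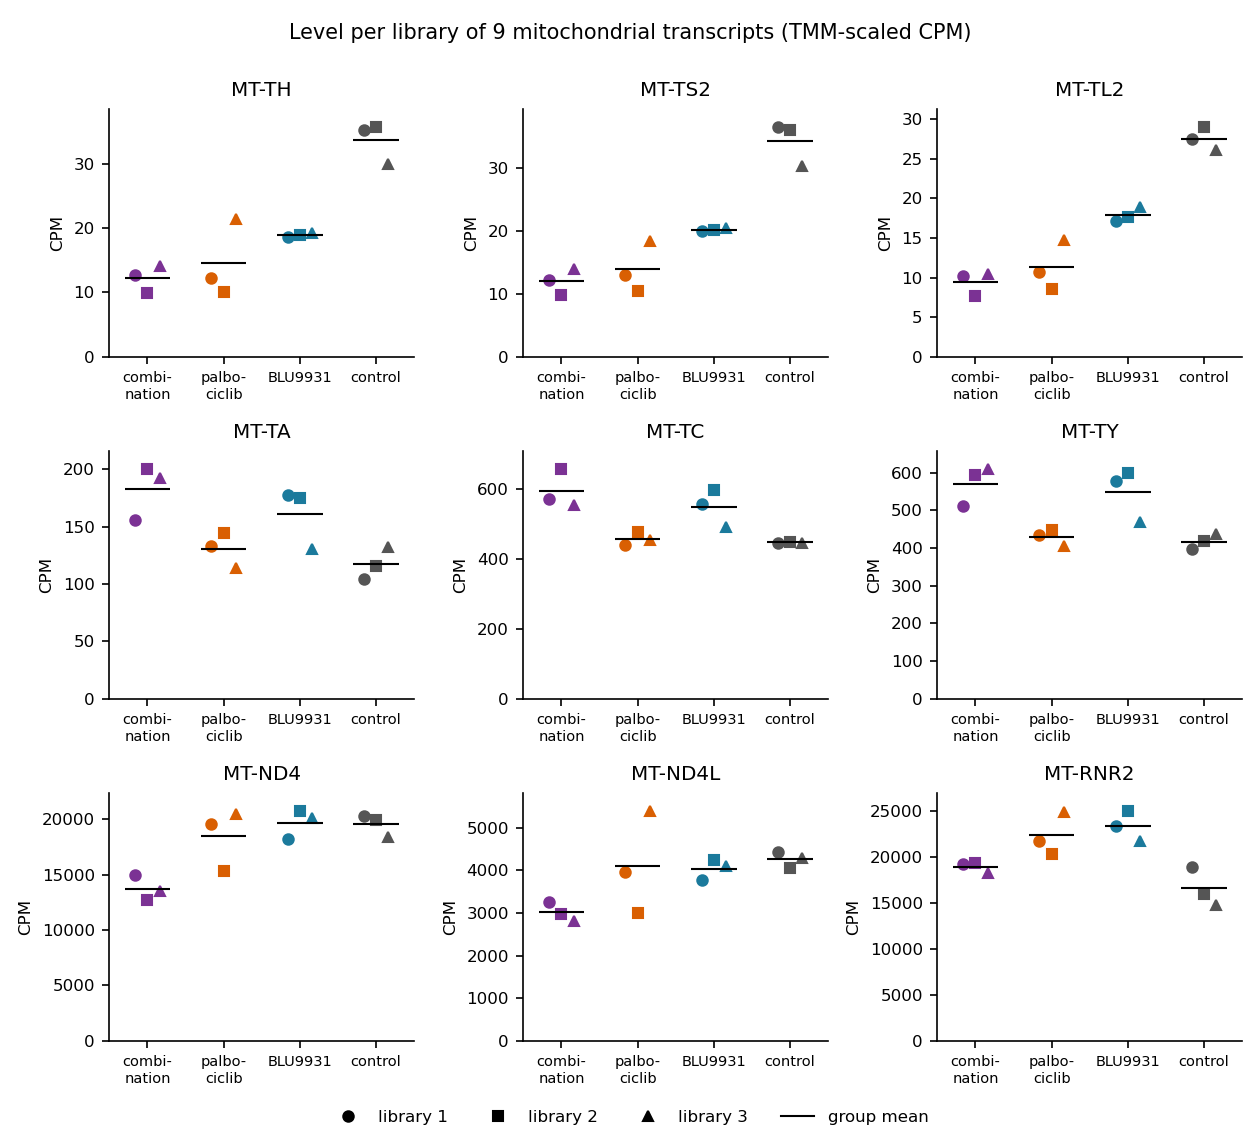
TMM-scaled CPM of 9 mitochondrial transcripts in each library, with axes that start at 0, points for libraries and lines for group means. For MT-TH, MT-TS2 and MT-TL2 all treated libraries lie below all controls, and MT-ND4 has its lowest values, 12670 to 14965 CPM, under the combination.

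Between palbociclib and the control, 7 of the 37 genes passed, or 18.9%, against 20.6% of all genes tested, a share near the background. MT-RNR2 rose and 6 tRNAs fell, where 10% of all genes rose and 10.5% fell, and no mRNA passed. With scaling by library totals 2 rose and 4 fell, and with scaling from genes outside the mitochondrial genome 2 rose and 6 fell. The further gene that rose was the mRNA MT-CO1 both times, so the absence of an mRNA depended on the scaling. The groups did not overlap in 10 of the 37 genes, against 32% of all genes. The median log2 change of the 37 was -0.16, against 0.01 over all genes.

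The tRNA cluster after MT-ND4 fell here too. MT-TL2 had 10.7, 8.62 and 14.8 CPM in palbociclib libraries, against 27.5, 29 and 26.1 CPM in control libraries (-1.28 ± 0.19, adjusted p = 0.000846). MT-TS2 had a log2 change of -1.30 ± 0.20 (adjusted p = 0.00102) and MT-TH one of -1.20 ± 0.24 (adjusted p = 0.00502). Palbociclib 3 was the highest of its group in all 3, at 18.3 CPM for MT-TS2 and 21.5 CPM for MT-TH, and still lay below every control. Without control 1 and palbociclib 3 the log2 changes were -1.53, -1.52 and -1.57 for MT-TL2, MT-TS2 and MT-TH.

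MT-TS1 had 0.604, 0.629 and 0.889 CPM in palbociclib libraries, against 3.39, 3.22 and 3.91 CPM in control libraries (-2.31 ± 0.45, adjusted p = 0.00407). MT-RNR2 had 21711, 20282 and 24896 CPM in palbociclib libraries, against 18875, 15957 and 14799 CPM in control libraries (0.43 ± 0.10, adjusted p = 0.00975), with no overlap. These 5 calls held under each of the 23 alternatives. MT-TQ (-0.49 ± 0.15, adjusted p = 0.0404) and MT-TD, the aspartate tRNA (-0.65 ± 0.21, adjusted p = 0.0481), did not. The call of MT-TQ ended without any 1 of control 1, 2 or 3, palbociclib 1 or 2, or BLU9931 1 or 3 (0.0509 to 0.115). It also ended with library totals (0.0604), without the filter (0.101), with the replicate block (0.0790) and with unfiltered TPM (0.0506). That of MT-TD ended without any 1 of control 1, 2 or 3, palbociclib 1 or 2, BLU9931 3, or combination 2 or 3 (0.0531 to 0.136). MT-TD has a GC content of 23.5%, and with the GC adjustment it had -0.46 (adjusted p = 0.151). Its call also ended with library totals (0.0628), without the filter (0.0641), with the replicate block (0.0511) and with unfiltered TPM (0.0888).

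The number of genes past the threshold turned on palbociclib 3. Without it 15 of the 37 genes passed, and without it and control 1 there were 18, of which 1 rose and 17 fell. Calls over all genes numbered 5689 without it and 6027 without both, against 4236 with all libraries. The 11 genes gained without both were MT-ND3, a complex I subunit, and the tRNAs MT-TE, MT-TF, MT-TG, MT-TI, MT-TK, MT-TM, MT-TR, MT-TT, MT-TV and MT-TW. MT-TT, the threonine tRNA, had 13.2, 16.6 and 37.6 CPM in palbociclib libraries, against 28.7, 24.7 and 29.5 CPM in control libraries, and its log2 change was -0.30 with all libraries (adjusted p = 0.545) and -0.88 without both (adjusted p = 0.00259). MT-CO1 had 39280, 34069 and 39313 CPM in palbociclib libraries, against 33980, 32164 and 30382 CPM in control libraries (0.22 ± 0.08, adjusted p = 0.0583). It passed with library totals (0.00994), scaling from genes outside the mitochondrial genome (0.0411), the GC adjustment (0.0158) and limma on TPM (0.020 to 0.0333). Without BLU9931 3 (0.0401), control 1 (0.0476) or palbociclib 2 (0.0292) it passed as well.

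Between BLU9931 and the control, 0 of the 37 genes passed edgeR's test, where 0.18% of all genes did, 0.141% higher and 0.0388% lower. At an unadjusted p under 0.05 there were 15 of the 37, beside 3347 of the 20612 genes tested, and 8 passed with DESeq2, which called 590 genes in all. The groups did not overlap in 17 of the 37 genes, against 31.6% of all genes. The smallest adjusted p belonged to MT-TM, the methionine tRNA (-0.71 ± 0.14, adjusted p = 0.0647), followed by MT-RNR2 (0.50 ± 0.10, adjusted p = 0.0699), MT-TQ (-0.76 ± 0.15) and MT-CO3 (-0.40 ± 0.08), both at an adjusted p of 0.0703.

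The values of these genes did not overlap between the groups. MT-TM had 8.36, 8.66 and 6.80 CPM in BLU9931 libraries, against 12.9, 13.2 and 12.9 CPM in control libraries. MT-RNR2 had 23290, 24938 and 21731 CPM in BLU9931 libraries, against 18875, 15957 and 14799 CPM in control libraries. MT-CO3 had 8843, 10497 and 9281 CPM in BLU9931 libraries, against 12227, 13234 and 12359 CPM in control libraries. Every BLU9931 library was thus lower than every control for MT-CO3 and MT-TM and higher for MT-RNR2.

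MT-TH had 18.5, 18.8 and 19.2 CPM in BLU9931 libraries, against 35.2, 35.6 and 29.96 CPM in control libraries (-0.83 ± 0.24, adjusted p = 0.177). MT-TS2 had a log2 change of -0.76 ± 0.20 (adjusted p = 0.144) and MT-TL2 one of -0.62 ± 0.19 (adjusted p = 0.192). Without palbociclib 3, a library of neither group that enters the shared estimate of the spread, 9 genes passed: MT-CO3, MT-ND2, MT-RNR2, MT-TH, MT-TI, MT-TL2, MT-TM, MT-TQ and MT-TS2. Without palbociclib 3 and control 1 there were 7, 1 higher and 6 lower. All-gene calls numbered 396 without palbociclib 3 and 553 without both, against 37 with all libraries.

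Between the combination and palbociclib, 3 of the 37 genes passed, or 8.11%, against 3.82% of all genes tested, of which 0.917% rose and 2.91% fell. The groups did not overlap in 8 of the 37, against 21.6% of all genes. MT-TC had 570.2, 656 and 555 CPM in combination libraries, against 439.7, 477 and 455 CPM in palbociclib libraries (0.38 ± 0.09, adjusted p = 0.0449). MT-TF, the phenylalanine tRNA that opens the plus-strand unit, had 21.4, 23.6 and 29.5 CPM in combination libraries, against 11.3, 15.9 and 16.7 CPM in palbociclib libraries (0.76 ± 0.19, adjusted p = 0.0477). MT-ND4 had 14965, 12670 and 13496 CPM in combination libraries, against 19513, 15347 and 20483 CPM in palbociclib libraries (-0.43 ± 0.10, adjusted p = 0.0452). The groups did not overlap in these genes.

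All 3 calls lay close to the threshold. With library totals 1 gene rose and 1 fell, and with scaling from genes outside the mitochondrial genome only MT-ND4 passed. Leaving out single libraries gave an adjusted p of 0.0511 to 0.182 for MT-TC, which lost its call each of 12 times. It gave 0.0384 to 0.201 for MT-TF, which kept its call without control 1 or palbociclib 3. It gave 0.00604 to 0.154 for MT-ND4, which kept its call without control 1 or palbociclib 2. Without both control 1 and palbociclib 3, 6 genes passed and all rose, MT-TC, MT-TF, MT-TD, MT-TT, MT-TV and MT-TW, while MT-ND4 had -0.35 (adjusted p = 0.0751). In that fit 817 of all genes rose and 1226 fell, 2043 calls against 788 with all libraries. The cluster MT-TH, MT-TS2 and MT-TL2 had log2 changes of -0.25 ± 0.24, -0.22 ± 0.20 and -0.27 ± 0.19, none past the test. Without control 1 and palbociclib 3 the first and second were of the other sign, at 0.13 and 0.03, and MT-TL2 had -0.03.

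Between the combination and BLU9931, 8 of the 37 genes passed, or 21.6%, against 27% of all genes tested. Of these, 2 rose and 6 fell, where 13.3% of all genes rose and 13.7% fell. With scaling from genes outside the mitochondrial genome 1 rose and 6 fell. The groups did not overlap in 16 of the 37, against 52.6% of all genes. MT-RNR1 had 1488, 1620.2 and 1634 CPM in combination libraries, against 2099, 2261 and 1973 CPM in BLU9931 libraries (-0.42 ± 0.07, adjusted p = 0.00113). MT-CO3 had 13328, 12696 and 12608 CPM in combination libraries, against 8843, 10497 and 9281 CPM in BLU9931 libraries (0.43 ± 0.08, adjusted p = 0.00208). MT-ND4 had 14965, 12670 and 13496 CPM in combination libraries, against 18232, 20715 and 20105 CPM in BLU9931 libraries (-0.52 ± 0.10, adjusted p = 0.0033). In none of the 3 did the groups overlap.

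MT-TL2 fell by 0.93 on the log2 scale (SE 0.19, adjusted p = 0.00398), and MT-TS2 by 0.75 (SE 0.20, adjusted p = 0.0156). MT-TS1 (-1.34 ± 0.43, adjusted p = 0.0365), MT-RNR2 (-0.30 ± 0.10, adjusted p = 0.0404) and MT-TM (0.40 ± 0.14, adjusted p = 0.0478) also passed. MT-RNR1, MT-CO3, MT-ND4 and MT-TL2 held under each of the 23 alternatives. The call of MT-TS2 ended without combination 2 (0.054). That of MT-TS1 ended without BLU9931 1 (0.0956), BLU9931 2 (0.0973), combination 1 (0.114) or combination 2 (0.123), and that of MT-RNR2 without BLU9931 1 (0.0688), BLU9931 2 (0.0825), or combination 1, 2 or 3 (0.0506 to 0.0859). The call of MT-RNR2 also ended with TPM (0.0606 to 0.103) and with the replicate block (0.0695). Among the fits that left out a single library, MT-TM kept its call only without palbociclib 3, and its adjusted p was 0.063 to 0.21 without any other. MT-TM also lost its call without the filter (0.158), with the replicate block (0.0889) and with scaling from genes outside the mitochondrial genome (0.0582). Without palbociclib 3, 14 of the 37 genes passed, and without control 1 as well there were again 14, while without combination 2 there were 4 and without BLU9931 1, BLU9931 2 or combination 1 there were 5. The number of calls over all genes moved as well. It was 6836 without palbociclib 3 and 8685 without control 1 as well, against 5572 with all libraries. Over all fits that left out a single library it ran from 4120 to 6836.

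The effect of BLU9931 in the presence of palbociclib was set against its effect alone by an interaction term, which passed for 1 of the 37 genes, or 2.70%, against 1.59% of all genes. The gene was MT-RNR2, with an interaction of -0.73 ± 0.14 on the log2 scale (adjusted p = 0.0248). Its log2 change was -0.24 ± 0.10 for the combination against palbociclib and 0.50 ± 0.10 for BLU9931 against the control. Neither of these changes passed edgeR's test by itself. MT-RNR1 had an interaction of -0.30 ± 0.10 (adjusted p = 0.194). The call of MT-RNR2 ended without control 2 (0.0508), BLU9931 1 (0.0646) or combination 3 (0.0699), and with the replicate number as a block (0.0723). Without palbociclib 3, 5 genes passed, and without palbociclib 2 there were 2. Without both control 1 and palbociclib 3, 7 genes passed, and MT-RNR2 had -0.75 (adjusted p = 0.000935). Calls over all genes numbered 2117 without both, against 328 with all libraries. They ran from 148 to 986 over fits that each left out a library.

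The mRNAs MT-ATP8, MT-ND6 and MT-ATP6 varied most inside the groups. MT-ATP8 and MT-ATP6, both subunits of ATP synthase, are read from a shared transcript, and their genes overlap by 46 bases at MT:8527-8572, where the start codon of MT-ATP6 and the stop codon of MT-ATP8 are shown in capitals.
MT-ATP8 and MT-ATP6 overlap: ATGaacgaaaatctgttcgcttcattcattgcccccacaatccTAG
MT-ATP8 had 377, 147 and 217 CPM in combination libraries, 154, 120.3 and 583 CPM in palbociclib libraries, 113, 136 and 523 CPM in BLU9931 libraries, and 131, 351 and 478 CPM in control libraries. The spread inside each group exceeded the difference between group means, and the coefficient of variation within groups was 73.3%. MT-ND6, a complex I subunit, had 173, 111 and 143 CPM in combination libraries, 179.9, 86.7 and 292 CPM in palbociclib libraries, 142, 205 and 328 CPM in BLU9931 libraries, and 152, 232 and 238 CPM in control libraries, a coefficient of variation of 38.2%. That of MT-ATP6 was 31.0%, against 4.60% for MT-CO2 and 4.72% for MT-RNR1. Whether the counting assigned reads of the overlap to 1 gene, both or neither is not given in the sources used here, so values of MT-ATP8, MT-ATP6 and the pair MT-ND4L and MT-ND4 are uncertain in that respect. MT-ND6 is the only mRNA on the minus strand, and whether strand was used in counting is not given either, so its reads and those of the opposite precursor cannot be told apart.

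**Figure D5:**
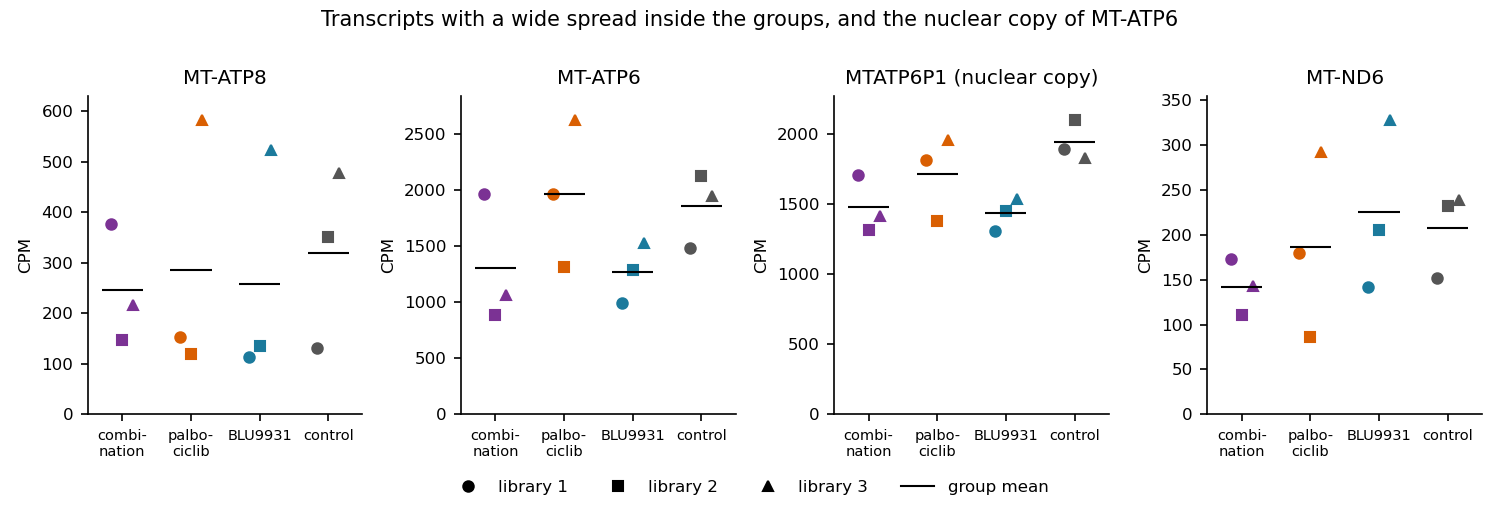
TMM-scaled CPM of MT-ATP8, MT-ATP6, the nuclear copy MTATP6P1 and MT-ND6 in each library, with axes that start at 0, points for libraries and lines for group means. MT-ATP8 spans 120.3 to 583 CPM inside the palbociclib group and 131 to 478 CPM inside the control group.

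Nuclear copies of mitochondrial genes can share reads with their originals. The table held 405 rows named as such copies, of which 23 were tested, and together they took 0.459 to 0.598% of the counts of a library. The 3 copies with the most counts lie on chromosome 1. MTATP6P1, with 98.5% identity to MT-ATP6 over 681 aligned bases, took 42.7 to 59.9% of the counts of that pair. MTND2P28, with 98.4% identity to MT-ND2, took 17.9 to 21.95% of its pair, and MTCO1P12, with 98.7% identity to MT-CO1, took 2.98 to 5.62% of its pair. How reads that match both genes of a pair were assigned is not given. Levels of MT-ATP6, MT-ND2 and MT-CO1 are therefore uncertain, by an amount that was not measured. MTATP6P1 had a log2 change of -0.39 between the combination and the control (adjusted p = 0.0453), and MTND2P28 one of -0.32 (adjusted p = 0.0497). With the copies' counts added to the matching mitochondrial gene, 15 genes passed between the combination and the control, the same number as without.

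The nuclear genes whose products transcribe and process mitochondrial RNA were followed as a list. Of 34 genes for mitochondrial transcription and RNA maturation, 1 rose and 4 fell under the combination against the control, or 14.7%, where 31.7% of all genes changed. PNPT1, the polynucleotide phosphorylase that degrades mitochondrial RNA, averaged 58.5 CPM in combination libraries and 104.6 CPM in control libraries (-0.84 ± 0.18, adjusted p = 0.00437). MTERF3, a repressor of mitochondrial transcription initiation, averaged 22.9 CPM in combination libraries and 36.5 CPM in control libraries (-0.67 ± 0.16, adjusted p = 0.00749). Under palbociclib 1 rose and 4 fell, or 14.7%, against 20.6% of all genes, among them PNPT1 (-0.71 ± 0.18, adjusted p = 0.0164) and LRPPRC, which stabilises mitochondrial mRNAs (-0.47 ± 0.13, adjusted p = 0.0219). The call of PNPT1 under palbociclib ended without control 1 (0.054) or palbociclib 2 (0.050), and that of LRPPRC without control 1 (0.0635), palbociclib 1 (0.057) or palbociclib 2 (0.0556). Under BLU9931 0 of the 34 passed edgeR's test, with 8 at an unadjusted p under 0.05, beside 3347 of the 20612 genes tested. In the combination against BLU9931, 3 rose and 1 fell, or 11.8%, against 27% of all genes, with FASTKD5, needed to process mRNAs that no tRNA flanks (0.55 ± 0.11, adjusted p = 0.0037), and TFB2M, an initiation factor of mitochondrial transcription (0.76 ± 0.17, adjusted p = 0.00568).

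Of 18 genes for maintenance of mitochondrial DNA, 2 rose and 2 fell under the combination against the control, or 22.2%, against 31.7% of all genes. POLG2, the accessory subunit of the mitochondrial DNA polymerase, averaged 12.6 CPM in combination libraries and 23.3 CPM in control libraries (-0.89 ± 0.19, adjusted p = 0.00371), and DGUOK, the mitochondrial deoxyguanosine kinase, rose (0.42 ± 0.10, adjusted p = 0.00615). Under palbociclib 0 rose and 4 fell, or 22.2%, against 20.6% of all genes, with RNASEH1, which removes RNA primers (-0.60 ± 0.11, adjusted p = 0.00342), and TWNK, the mitochondrial DNA helicase (-0.42 ± 0.11, adjusted p = 0.0226). TWNK lost its call without control 2, control 3, palbociclib 1 or palbociclib 2 (0.0549 to 0.0669). Under BLU9931 0 of the 18 passed edgeR's test, with 4 at an unadjusted p under 0.05, beside 3347 of the 20612 genes tested. SLC25A4, the ADP and ATP carrier of the inner membrane, averaged 106.5 CPM in combination libraries, 84.3 CPM in palbociclib libraries, 72.5 CPM in BLU9931 libraries and 84.5 CPM in control libraries. It rose in the combination against BLU9931 (0.55 ± 0.08, adjusted p = 0.000412). In that comparison 3 of the 18 rose and 3 fell, or 33.3%, against 27% of all genes. In the combination against palbociclib 2 of the 18 rose, or 11.1%, against 3.82% of all genes. They were TWNK (0.47 ± 0.11, adjusted p = 0.0401) and SLC25A4 (0.34 ± 0.08, adjusted p = 0.041), and both calls lay close to the threshold. SLC25A4 lost its call each of 12 times that a library was left out (0.0508 to 0.146), and without the filter (0.213). TWNK kept its call without control 1 or palbociclib 3 and lost it without any other library (0.0529 to 0.141), and with TPM (0.319 to 0.429). Of 9 regulators of mitochondrial biogenesis, 1 rose and 2 fell under the combination, or 33.3%, a share near the 31.7% of all genes. PPARGC1B, a transcriptional coactivator of mitochondrial genes, averaged 7.66 CPM in combination libraries, 11.8 CPM in palbociclib libraries, 33.5 CPM in BLU9931 libraries and 29.4 CPM in control libraries, with a log2 change of -1.94 ± 0.31 for the combination against the control (adjusted p = 0.000681). PPARGC1A, a coactivator of the same family, averaged 5.24 CPM in combination libraries, 4.04 CPM in palbociclib libraries, 3.17 CPM in BLU9931 libraries and 2.03 CPM in control libraries (1.38 ± 0.28, adjusted p = 0.00322 for the combination against the control). The pair moved in opposite directions. Between palbociclib and the control PPARGC1B had -1.31 ± 0.31 (adjusted p = 0.0108), and without control 1 and palbociclib 3 its adjusted p was 0.0587. PPARGC1A had 1.00 ± 0.28 (adjusted p = 0.0279), and lost its call without control 2 (0.0831), control 3 (0.0915) or palbociclib 3 (0.0722). Under BLU9931 0 of the 9 passed edgeR's test, with 1 at an unadjusted p under 0.05, beside 3347 of the 20612 genes tested. In the combination against BLU9931, 1 of the 9 passed and fell, or 11.1%, against 27% of all genes.

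The 75 gene names for nuclear subunits of oxidative phosphorylation had 76 tested rows, with 5 rows for the 4 names of complex II. Of the 76, 3 rose and 7 fell under the combination against the control. Under palbociclib against the control 1 rose and 11 fell, or 15.8%, against 20.6% of all genes. Under the combination that is 13.2%, against 31.7%. SDHB, the iron-sulphur subunit of complex II, averaged 76.0 CPM in combination libraries, 74.3 CPM in palbociclib libraries, 113.7 CPM in BLU9931 libraries and 119.4 CPM in control libraries. Its log2 change against the control was -0.65 ± 0.09 for the combination (adjusted p = 0.000164) and -0.68 ± 0.09 for palbociclib (adjusted p = 0.000272). NDUFA6, a complex I subunit, averaged 20.6 CPM in combination libraries and 53.5 CPM in control libraries (-1.38 ± 0.22, adjusted p = 0.000635). Of the 37 nuclear complex I subunits, 2 rose and 4 fell under the combination. COX5A, a complex IV subunit, fell under palbociclib (-0.50 ± 0.08, adjusted p = 0.0014). Under BLU9931 0 of the 76 passed edgeR's test, with 12 at an unadjusted p under 0.05, beside 3347 of the 20612 genes tested. Set against BLU9931, the combination had 6 that rose and 9 that fell, or 19.7%, against 27% of all genes, among them SDHB (-0.58 ± 0.09, adjusted p = 0.000449).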

How the data were processed

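The authors deposited a table of genes by 12 libraries with counts, TPM and FPKM, per the file headers. The counts are whole numbers without normalization, the deposited TPM and FPKM are scaled by gene length and depth, and the FPKM columns were not used. Trimmomatic 0.36, StringTie 1.3.3b, HISAT2 2.0 and bedtools 2.26.0 are listed, with no roles, per the submitters' processing notes, and how reads were assigned by strand, at overlaps and at multiple positions is not given in the sources used here. The kit was an mRNA library kit per the labels' protocols, and whether poly(A) RNA was selected is not given. All 37 MT- rows had the strand, start and end of GENCODE release 29 on GRCh38.

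Genes were kept by filterByExpr, scaled by TMM and fitted with edgeR 4.0.16 (quasi-likelihood, robust) in a single fit with a term for each group, which left 8 residual degrees of freedom. Tests were two-sided and p-values were adjusted by Benjamini-Hochberg over 20612 genes, with a threshold of 0.05. Alternatives were library totals, scaling without MT- genes, no filter, DESeq2 1.42.0, limma 3.58.1 on log2(TPM + 1) or log2(TPM + 0.1), a replicate block, a GC adjustment, each library left out, and both control 1 and palbociclib 3 left out. Adding the counts of nuclear copies was chosen after seeing the data. The edgeR step was checked on simulated data. Counts of replicates differed by more than sampling noise, with a chi-square per degree of freedom of 16.3 to 80.9 in each pair.

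All mRNAs and rRNAs are named, with the 4 tRNAs of highest CPM, up to 4 tRNAs past the threshold in each comparison, and up to 2 genes of a nuclear list in each comparison. The result of 1 gene that this rule names is not reported here. MT-TA, MT-TD, MT-TG, MT-TQ and the tRNAs listed as gained without control 1 and palbociclib 3 were named after their values were seen. The members and lists were chosen with earlier results of these data known. Other markers ranged over 3.03 to 11.5 TPM summed for 4 glandular genes, 16.9 to 41.3 for 4 neuroendocrine, 0.392 to 1.51 for 4 leukocyte and 1.36 to 5.31 for 4 fibroblast genes. Sequences were read from the GENCODE transcripts.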

Additional observations from a re-analysis of the deposited data

Results flagged for a closer look

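MT-RNR2, the large mitochondrial rRNA, responded to BLU9931 differently with and without palbociclib, by the test of the difference itself. The interaction was -0.73 on the log2 scale, with an SE of 0.14 and an adjusted p of 0.0248 in edgeR's fit of 12 libraries. MT-RNR2 averaged 18923 CPM in combination libraries and 22296 CPM in palbociclib libraries, and 23320 CPM in BLU9931 libraries and 16544 CPM in control libraries. All 3 combination libraries lay below all 3 palbociclib libraries, and all 3 BLU9931 libraries lay above all 3 controls. Taken by itself, neither change passed edgeR's test. Over 12 fits that each left out a library the adjusted p ran from 0.0047 to 0.0699, with the replicate number as a block it was 0.0723, and the sign of the interaction was the same under each of the 23 alternatives. The cause was not tested.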

How the results depend on the processing

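Under the combination against the control, 15 of the 37 genes passed, and every alternative kept that number within 1.5 times, with 11 to 18 over fits that each left out a library. A GC adjustment gave 7 higher and 9 lower there, against 5 and 10. Between palbociclib and the control, 7 passed, with 5 to 15 when a library was left out, the most without palbociclib 3, and 18 without control 1 and palbociclib 3. Between BLU9931 and the control, 0 passed, against 1 with library totals, 8 with DESeq2, 1 and 2 with limma on TPM at pseudocounts of 1 and 0.1, 4 with the GC adjustment, 7 without control 1 and palbociclib 3, and 0 to 9 when a library was left out. For the combination against palbociclib, 3 passed, against 1 with scaling from other genes, 1 without the filter, 1 at either TPM pseudocount, 0 for unfiltered TPM, 5 with the GC adjustment, 6 without control 1 and palbociclib 3, and 0 to 3 when a library was left out. For the combination against BLU9931, 8 passed, against 14 without control 1 and palbociclib 3, and 4 to 14 when a library was left out. The interaction passed for 1 gene, against 2 with DESeq2, 3 with the GC adjustment, 7 without control 1 and palbociclib 3, and 0 to 5 when a library was left out. The log2 ratio of the mRNA share between the combination and the control was -0.04 in counts and -0.10 in TPM, and -0.09 to -0.02 when a library was left out. The cause of these shifts was not tested.

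Same-numbered libraries deviated together with correlations of -0.36 to 0.17 over 18 pairs, and 4 of 12 libraries correlated best with their own number, so the numbers do not pair them. A replicate block left 14, 5, 0, 1 and 6 genes in these 5 comparisons in the order above and 0 for the interaction.

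Over all genes, 4236 passed between palbociclib and the control, against 6950 with the GC adjustment. Between BLU9931 and the control there were 37, against 17 without the filter, 590 with DESeq2, 2 with the block, 14 and 2 for TPM with and without its filter, 553 without control 1 and palbociclib 3, and 629 with the GC adjustment. Between the combination and palbociclib there were 788, against 1316 with DESeq2, 483 with the block, 456 for unfiltered TPM, 2043 without control 1 and palbociclib 3, and 2102 with the GC adjustment. Between the combination and BLU9931, 5572 passed, against 8685 without control 1 and palbociclib 3. The interaction passed for 328, against 838 with DESeq2, 142 with the block, 195, 209 and 136 for the TPM settings, 2117 without control 1 and palbociclib 3, and 1553 with the GC adjustment. Leaving out a library gave 1 to 396 genes between BLU9931 and the control and 148 to 986 for the interaction.

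Of 2622 alternative values for single named genes, 2456 stayed on their side of the threshold, 39 moved past it and 127 fell short of it, and no called value changed sign. Low counts limit MT-TS1, with 13 to 138 per library.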
